A study of Mus musculus with 8 samples.

Results

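The corticosteroid receptors of the mouse kidney, the enzymes that set how much hormone reaches them and a small group of genes known to respond to them were followed across cell classes, genotype and time of day. The 8 genes were taken by their symbols among the 32285 features of the count matrices, and all 8 were found and are annotated as protein-coding, of 21286 protein-coding genes. They were the glucocorticoid receptor Nr3c1, the mineralocorticoid receptor Nr3c2, the enzymes Hsd11b1 and Hsd11b2, and the responsive genes Sgk1, Tsc22d3, Fkbp5 and Zbtb16. None was chosen by its values in any comparison below, although the set was proposed with earlier results of these data known.

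The data came from single-nucleus RNA-seq of kidneys of male mice on a C57BL/6J background, with 8 libraries in 4 groups of 2 mice. Control mice (Ctrl) were Bmal1 lox/lox littermates, and cKOt mice were Bmal1 lox/lox/Pax8-rtTA/LC-1, in which a Pax8 promoter, active along the renal tubule, drives a doxycycline-dependent transactivator and, through it, the Cre recombinase that deletes a part of Bmal1, a gene of the core circadian clock. Both genotypes drank doxycycline at 2 mg/ml with sucrose at 20 mg/ml for 2 weeks from 8 weeks of age, were kept under 12 h of light a day and were killed at 14 weeks, at ZT4 (4 h after lights on, the rest phase of mice) or ZT16 (4 h after lights off, the active phase). Endothelial, stromal and immune cells lie outside the tubule and were not the target of the deletion. The study reports that a separate kidney section served to check the inactivation of Bmal1 by PCR. In the counts the deletion could not be checked on the level of the targeted gene, because they are not limited to the deleted part.

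Corticosteroids act through 2 closely related nuclear receptors that bind the same short palindromic DNA element. The mineralocorticoid receptor binds aldosterone and the glucocorticoids cortisol and corticosterone with similarly high affinity, and in the aldosterone-sensitive distal nephron HSD11B2 inactivates the glucocorticoids, which leaves the receptor to aldosterone. HSD11B1 works mainly in the opposite direction and regenerates active glucocorticoid inside the cell. Plasma glucocorticoids follow a daily rhythm, with a peak around lights off in mice, and renal sodium transport under the 2 hormones is one of the classical subjects of circadian physiology.

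After filtering, 81391 nuclei of 82784 barcodes remained, 8758 to 10975 per library, with 36548873 to 54500820 UMIs per library and median depths of 3003.5 to 4830 UMIs per nucleus. Clustering on protein-coding genes gave 24 cell classes or clusters with enough nuclei for a test, and B cells, with 7 to 36 nuclei per library, were given levels only. Classes carry the names of the marker lists that defined them: proximal convoluted and straight tubule (PCT, PST), thin descending limb (thinDL), thick ascending limb (TAL), macula densa (MD), distal convoluted tubule (DCT1, DCT2), connecting tubule (CNT), principal cells of the cortical and medullary collecting duct (CCD, MCD), alpha- and beta-intercalated cells (aIC, bIC), urothelium (UT), podocytes (Podo), vascular cells (Vasc), mesangial cells and pericytes (Mes/Per), smooth muscle and juxtaglomerular cells (SMC/JGC), myeloid cells (Myel) and B cells (BC). Clusters 15, 17, 21, 26 and 29 and 2 proximal tubule clusters (4 and 11) kept their numbers, since their leading genes or markers did not settle a name. Cluster 26 had Themis and Cd226, genes of T and natural killer cells, among its leading genes, but rested on too few markers of that list. The class BC, cluster 30, had the B cell genes Pax5 and Bank1 among its leading genes, but also Flt3 and Clec9a, genes of dendritic cells. Levels given below for B cells are those of this class, which can be a mixture. Mes/Per joins clusters 3, 13 and 20. No marker of its list was among their leading genes, which included Ak5 and Col14a1, Adamtsl1 and Smoc2, and Ahrr and Vcan. The class can therefore hold other stromal cells. All class names were rebuilt here and the naming rule was set after the clusters were seen, so class borders can differ from those of the study. Libraries shared 18 to 42 barcode sequences in a pair, and 4352 nuclei called as doublets were kept and left out in an alternative.

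Levels are given as CPM, the UMIs of a gene scaled to 1 common total of protein-coding UMIs in each class and library, as mean ± SD over the 8 libraries. A level can be compared between classes for 1 gene, but not between genes, since nuclear counts include intronic reads and rise with gene length, for which these values are not corrected.

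**Figure D1:**
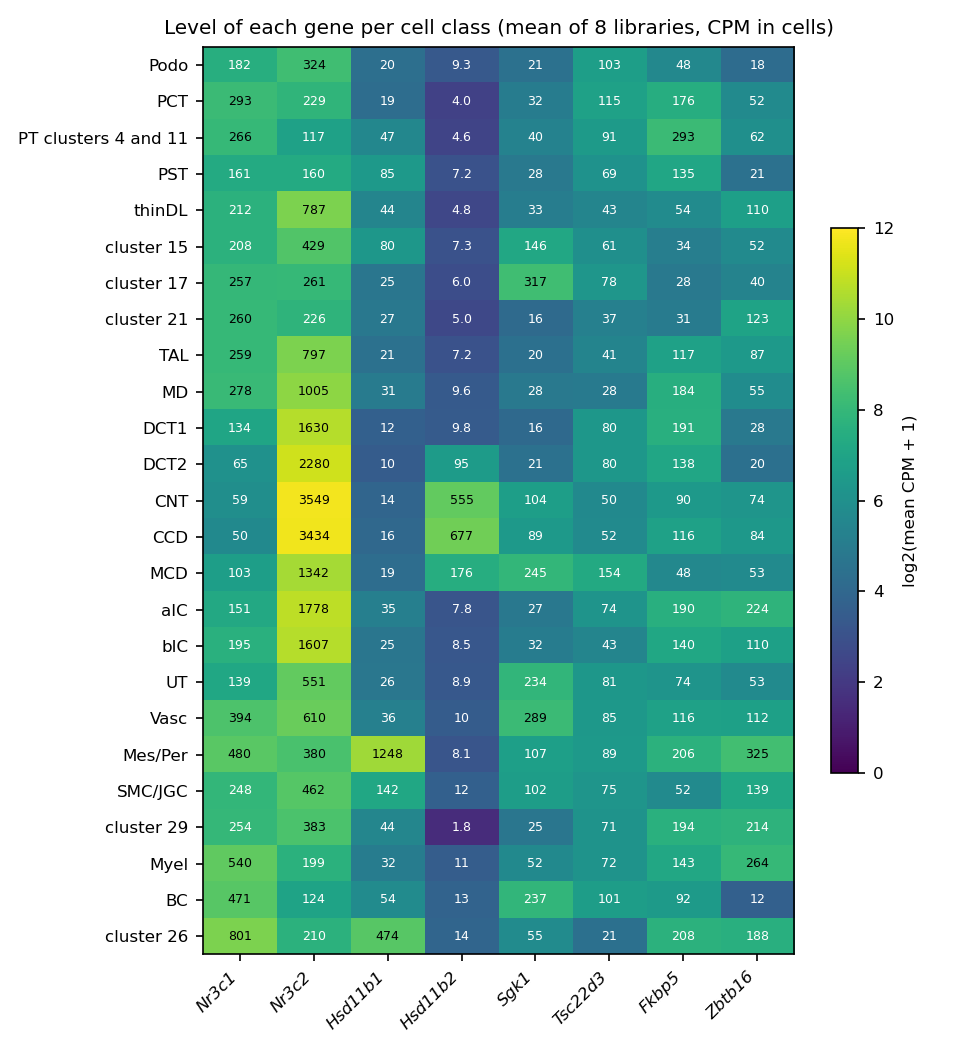
Mean level of the 8 genes (columns) in 25 cell classes or clusters (rows), over 8 libraries. Colour gives log2(mean CPM + 1) and the number in each cell the mean CPM, with Nr3c2 highest in CNT (3549) and CCD (3434) and Hsd11b2 limited to CCD, CNT, MCD and DCT2 among classes above 14 CPM.

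The 2 receptors had different distributions. Nr3c2, which encodes the mineralocorticoid receptor, was highest in CNT, at 3549 ± 392 CPM (SD, n = 8 libraries), and in CCD, at 3434 ± 338 CPM, and the ranges of these 2 classes overlapped. DCT2 followed at 2280 ± 379 CPM, with its highest library at 2666 CPM below the lowest of CCD at 2887 CPM. aIC (1778 ± 200 CPM), DCT1 (1630 ± 116 CPM), bIC (1607 ± 201 CPM) and MCD (1342 ± 254 CPM) came next, and neighbours in this order overlapped. The lowest levels were in the proximal tubule, at 117 ± 36.3 CPM in clusters 4 and 11 and 160 ± 47.2 CPM in PST, and in B cells, at 124 ± 79.1 CPM.

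Nr3c1, which encodes the glucocorticoid receptor, was found in every class and was highest outside the epithelium. Cluster 26 held 801 ± 145 CPM, Myel 540 ± 51.5 CPM, Mes/Per 480 ± 81.5 CPM, B cells 471 ± 99.0 CPM and Vasc 394 ± 35.7 CPM. Of the tubular classes PCT was highest, at 293 ± 67.9 CPM. The lowest were the 3 classes where Nr3c2 was highest, DCT2 (65.3 ± 6.06 CPM), CNT (59.2 ± 9.78 CPM) and CCD (50.1 ± 9.40 CPM). Over the 19 named classes the levels of the 2 receptors had a Pearson r of -0.76 (log2(CPM + 1)), a description of classes that share the same libraries.

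**Figure D2:**
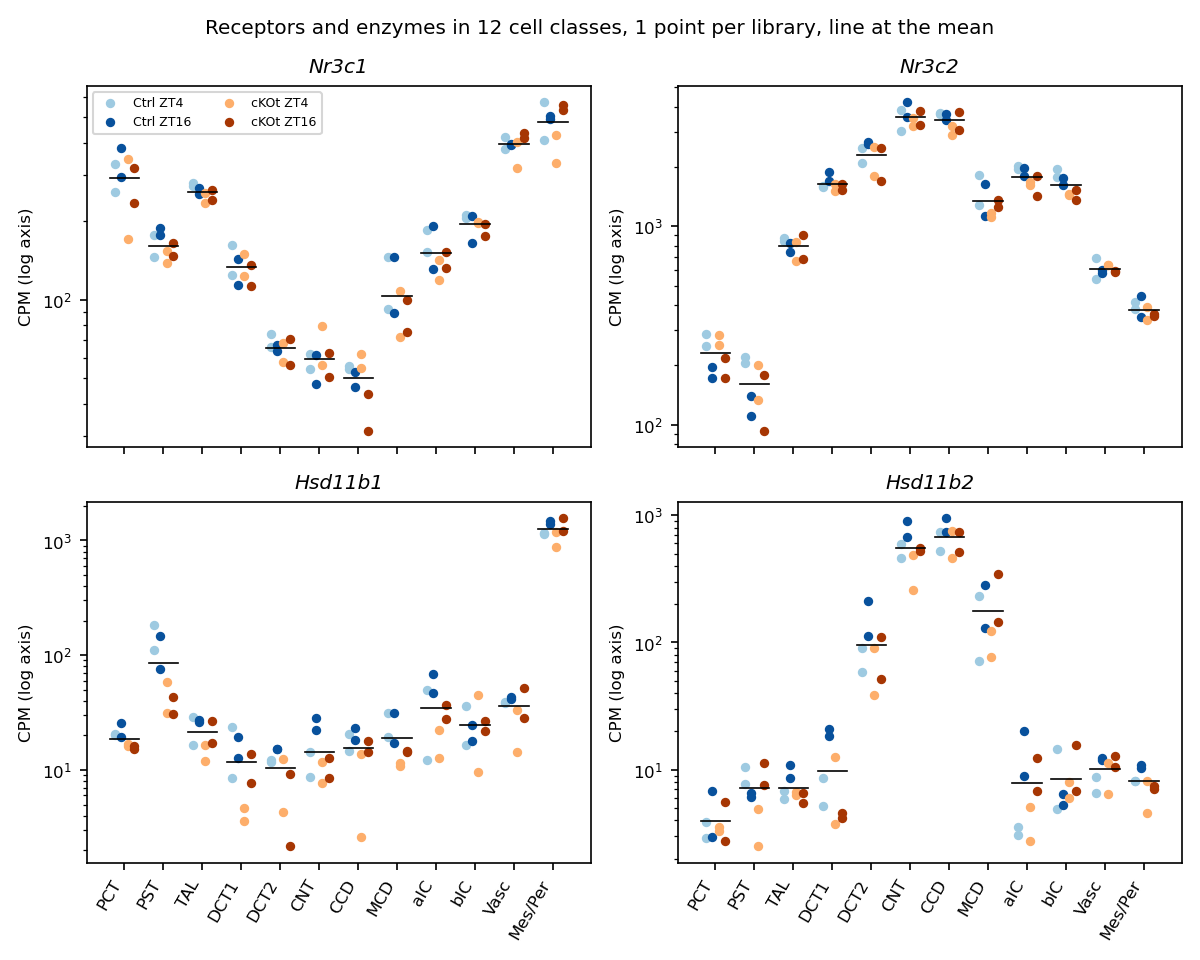
Levels of Nr3c1, Nr3c2, Hsd11b1 and Hsd11b2 (CPM, log axis) in 12 cell classes, with 1 point per library coloured by group and a line at the mean of 8 libraries. Nr3c1 was lowest and Nr3c2 highest in DCT2, CNT and CCD, Hsd11b2 dropped to 14 CPM or less outside DCT2, CNT, CCD and MCD, and Hsd11b1 was highest in Mes/Per.

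Hsd11b2, the enzyme that inactivates glucocorticoids, was restricted to 4 classes. Its level was 677 ± 164 CPM in CCD, 555 ± 183 CPM in CNT, 175 ± 99.7 CPM in MCD and 95.2 ± 53.8 CPM in DCT2, and at most 14 CPM, the mean of cluster 26, anywhere else. A UMI of Hsd11b2 was found in 81.7% of CCD and 76.4% of CNT nuclei, in 26.7% of MCD and 23.4% of DCT2 nuclei, and in 1.58% of PCT nuclei, a class that should lack the enzyme. The median depth was 3742 UMIs in CCD, 4856 UMIs in DCT2 and 4807 UMIs in PCT. After thinning every nucleus to 800 UMIs the expected shares were 36.1% in CCD, 30.3% in CNT, 9.69% in MCD, 6.65% in DCT2 and 0.275% in PCT. DCT1 (2.65%), aIC (2.65%) and TAL (2.22%) had thinned shares of 0.523%, 0.641% and 0.473%, between those of PCT and of Vasc (0.770%), which should also lack the enzyme, and are read as background.

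Receptor and enzyme were therefore compared within nuclei. Both Nr3c2 and Hsd11b2 had a UMI in 81.3% of CCD and 76.2% of CNT nuclei, against 25.4% in MCD and 23.1% in DCT2. Nr3c2 alone was counted in 99.4% of CCD, 99.2% of CNT and 97.5% of DCT2 nuclei, with or without Hsd11b2. The shares with both genes there thus follow from that of Hsd11b2 and add nothing on a link between the 2. In the intercalated cells, which carry the receptor at a high level, 93.9% of aIC and 93.2% of bIC nuclei had Nr3c2 without Hsd11b2. DCT1 resembled them, with Nr3c2 alone in 92.3% of its nuclei. A nucleus with no UMI of Hsd11b2 may still express it, and UMIs from free RNA or doublets were not separated here (both genes had a UMI in 2.60% of DCT1 and 2.36% of aIC nuclei), so these are shares of nuclei with UMIs and not of nuclei that express the genes.

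The enzyme also split 2 of the classes. In DCT2 a sub-cluster of 761 nuclei had 187 CPM of Hsd11b2 and another, of 733 nuclei, 10.6 CPM, while a small one of 43 nuclei was too small to be given a level. Of 9 MCD sub-clusters, leaving out a small one of 26 nuclei, 3 had 346 to 531 CPM of Hsd11b2 and 58.1 to 89.4 CPM of Sgk1, and the other 6 had at most 53.3 CPM of Hsd11b2 and 276 to 390 CPM of Sgk1. In marker scores the other 6 had 3.12 to 3.98 for MCD and 1.74 to 2.57 for CCD. The 3 sub-clusters had 3.05, 2.69 and 2.93 for MCD, near their 2.77, 2.62 and 2.78 for CCD, so their name is borderline. These 3 also shared the leading gene Mcoln3 with both CCD sub-clusters. Their share of MCD nuclei ran from 24.9% (Ctrl ZT16 replicate 2) to 60.3% (cKOt ZT16 replicate 1), and the same 2 libraries had 129 and 346 CPM of Hsd11b2 and 311 and 276.5 CPM of Sgk1 in MCD as a whole. Neither gene was among the variable genes used for clustering. The sub-clusters were divided after the levels of both genes were seen, so no test applies to this split. The part of this share in the MCD levels was not tested.

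The subunits of the epithelial sodium channel, the best known target of the hormone in these segments, followed a similar distribution. Scnn1b was at 1116 ± 120 CPM in CNT, 1102 ± 97.1 CPM in CCD, 481 ± 92.6 CPM in DCT2 and 43.9 ± 11.8 CPM in DCT1. Scnn1g was at 734 ± 140 CPM in CNT, 662 ± 136 CPM in CCD, 367 ± 93.1 CPM in DCT2 and 14 ± 9.27 CPM in DCT1. Scnn1a differed less, with 280 ± 33.2 CPM in CNT, 346 ± 53.5 CPM in CCD, 227 ± 27.3 CPM in DCT2 and 216 ± 53.7 CPM in DCT1. Among 13071 genes with at least 10 CPM in a class, the genes whose levels were most like those of Hsd11b2 over the 19 named classes were A930017K11Rik (r = 0.91), Scnn1g (r = 0.91) and Avpr2 (r = 0.90), the vasopressin V2 receptor. For Nr3c2 they were Zdhhc1 (r = 0.94), the potassium channel Kcnq1 (r = 0.91) and Bzw2 (r = 0.91), and for Nr3c1 they were Med13l (r = 0.91), Wipf1 (r = 0.86) and Gab3 (r = 0.85).

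Hsd11b1, the enzyme that regenerates active glucocorticoid, was highest in Mes/Per at 1248 ± 218 CPM. Cluster 26 had 474 ± 117 CPM and SMC/JGC 142 ± 63.2 CPM, and the ranges of these 3 did not overlap. PST, where the enzyme is known from proximal straight tubules, had 85.1 ± 56.5 CPM and PT clusters 4 and 11 had 46.7 ± 21.7 CPM. A UMI was found in 77.7% of Mes/Per and 27.3% of PST nuclei, against 4.51% of podocytes and 4.29% of DCT2 nuclei. After thinning to 800 UMIs these shares were 51.4%, 5.21%, 1.09% and 0.741%. Its most similar genes were Cntn1 (r = 0.92), Kdelr3 (r = 0.91) and Ripor3 (r = 0.91), which were also highest in Mes/Per.

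UMIs of the 4 responsive genes were counted in every class, for Zbtb16 in B cells in 4 of 182 nuclei, as many as for Hsd11b2 there. Sgk1 encodes a kinase that raises sodium channel abundance at the cell surface, and was highest in cluster 17 (317 ± 69.2 CPM), Vasc (289 ± 78.8 CPM), MCD (245 ± 64.5 CPM), B cells (237 ± 125 CPM) and UT (234 ± 108 CPM), and lowest in DCT1 (15.9 ± 6.42 CPM). Among vascular clusters it ran from 69.4 to 375 CPM. Tsc22d3 encodes GILZ, a leucine zipper protein through which glucocorticoids act against inflammation. By class mean it was highest in MCD (154 ± 62.3 CPM) and PCT (115 ± 46.9 CPM). Pooled over libraries, MCD sub-clusters ran from 59.7 to 329 CPM. Of the Mes/Per clusters, cluster 20 had 281 CPM of Tsc22d3, 349 CPM of Sgk1 and 535 CPM of Zbtb16. Clusters 3 and 13 had 52.1 and 82.3 CPM, 75.2 and 61.0 CPM, and 262 and 269 CPM in the same order. Fkbp5 encodes a co-chaperone that lowers the affinity of the glucocorticoid receptor for its hormone, and was highest in PT clusters 4 and 11 (293 ± 216 CPM), followed by cluster 26 (208 ± 94.3 CPM) and Mes/Per (206 ± 87.0 CPM). Zbtb16 encodes a zinc finger transcription factor, and was highest in Mes/Per (325 ± 248 CPM), Myel (264 ± 44.0 CPM) and aIC (224 ± 68.1 CPM). Neighbours in these 4 orders overlapped between libraries throughout, and the SDs of Fkbp5 and Zbtb16 contain the large differences between libraries given below. Their most similar genes were Ddx58 (r = 0.87) for Sgk1, Alg1 (r = 0.74) for Tsc22d3, Fbxl17 (r = 0.72) for Fkbp5 and Fblim1 (r = 0.82) for Zbtb16.

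The promoters bear on the receptors' binding element and on clock elements. Windows from 250 bases before to 50 bases after a RefSeq start (GRCm38.p6) were used for Nr3c2, Hsd11b1, Sgk1, Tsc22d3 and Fkbp5. Sgk1 had 6 windows and Tsc22d3 had 3. No window of Nr3c1, Hsd11b2 or Zbtb16 was searched. Both strands were searched for the steroid receptor element GNACANNNTGTNC, the E-box CACGTG bound by CLOCK and BMAL1, and the D-box TTATGTAA bound by DBP, HLF and TEF. These are held by 0.475%, 7.15% and 0.938% of all 32851 windows. A Sgk1 window at chr10:21993640-21993939 (plus strand) held both of the first 2, at 188 and 246 bases before the start, and the Fkbp5 window at chr17:28486100-28486399 (minus strand) held an E-box at 169 bases before it. The stretches are shown because Sgk1 and Fkbp5 are described below by time and genotype, with the matches in capitals.
Sgk1 steroid receptor element: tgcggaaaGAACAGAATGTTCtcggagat
Sgk1 E-box: tcctCACGTGttcttggcatgg
Fkbp5 E-box: gcaagggccagaCACGTGggcagcggtgaa
The capitals lie at chr10:21993702-21993714, chr10:21993644-21993649 and chr17:28486313-28486318. No other searched window of these 5 genes held any of the 3 motifs. A match is a run of letters and does not show binding.

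To ask which of the genes differed between rest and active phase, and whether this differed in cKOt mice, UMIs were summed per library. The sums were compared with edgeR's quasi-likelihood test. Benjamini-Hochberg adjustment was over all genes tested in a comparison, separately for each class. Calls within classes are therefore not adjusted for the number of classes. An adjusted p under 0.05 counted as a call. The comparisons share libraries, so their values are given side by side and are not independent of each other.

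Over all nuclei together, none of the 8 genes was called in any of 6 comparisons. The background was 0.142% of genes called for ZT16 against ZT4 in Ctrl, 0.0% for the same in cKOt, 0.446% for cKOt against Ctrl at ZT4, 0.174% at ZT16, 0.544% for time over both genotypes and 0.0183% for the interaction of genotype and time. At an unadjusted p under 0.05 there were 3, 2, 1, 2, 3 and 2 of the 8 in the same order, where 9.95%, 8.32%, 8.87%, 6.1%, 13.7% and 4.35% of all genes were. DESeq2, run as an alternative, called 1 gene for time in Ctrl (Tsc22d3, adjusted p = 0.0020), 1 for genotype at ZT4 (Hsd11b1, adjusted p = 0.011), 2 for time over both genotypes (Hsd11b2, adjusted p = 0.027, and Tsc22d3, adjusted p = 0.017) and none elsewhere, where it called 1.44%, 2.16% and 3.18% of all genes in these 3 comparisons. Sums over all nuclei mix cell classes, and a change in a class's share of the nuclei cannot be told apart there from a change in its level.

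Within classes the time of day was seen in single genes and places. For ZT16 against ZT4 in Ctrl, 10 of 170 tested pairs of gene and class were called, 7 of them higher at ZT16, where 0.315% of all gene and class pairs were called. In cKOt 4 of 170 were called, 1 of them higher, where 0.112% of all pairs were called. Over both genotypes 8 of 173 were called, 4 in each direction, where 0.81% of all pairs were called. These calls fell on Sgk1, Tsc22d3, Zbtb16 and, over both genotypes, Hsd11b2.

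**Figure D3:**
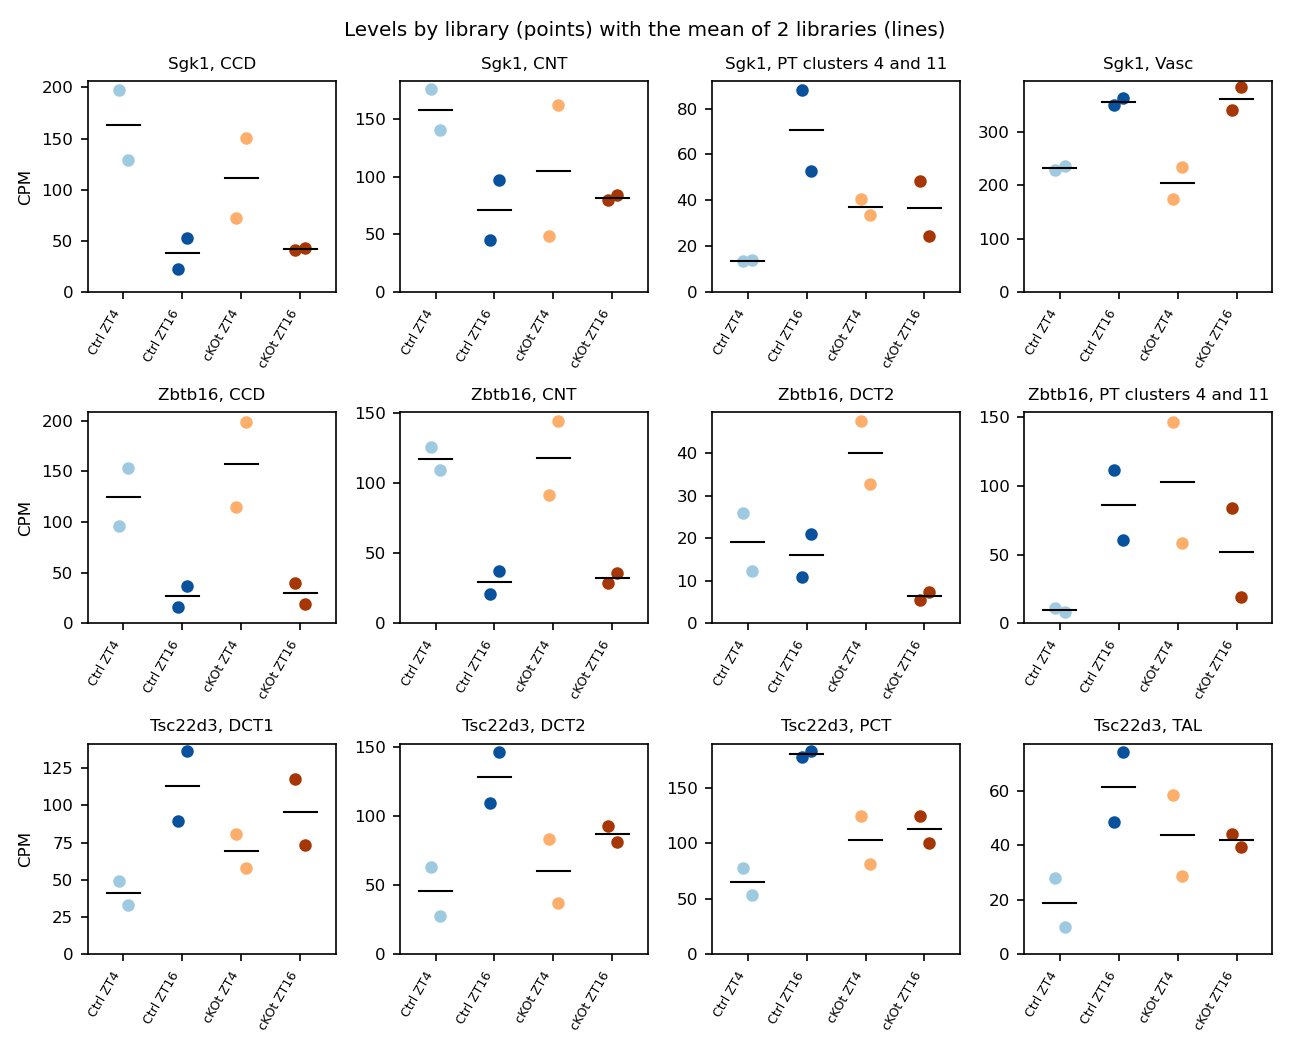
Levels (CPM) of Sgk1, Zbtb16 and Tsc22d3 in 4 classes each, with 1 point per library for the 4 groups and a line at the mean of the 2 libraries. Sgk1 in CCD fell from 137 CPM at ZT4 to 40.3 CPM at ZT16 over both genotypes while it rose in Vasc from 219 to 360 CPM.

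Sgk1 changed in opposite directions in different classes. In Ctrl mice CCD held 197 and 129 CPM at ZT4, against 23.1 and 52.9 CPM in the ZT16 libraries. In cKOt mice the ZT4 libraries held 72.9 and 151 CPM, and those of ZT16 held 41.7 and 43.5 CPM. All 4 ZT4 libraries lay above all 4 ZT16 libraries, on 10 to 80 UMIs of Sgk1 per library. The log2 change was -2.07 in Ctrl (SE 0.36, adjusted p = 0.0062), -1.40 in cKOt (SE 0.37, adjusted p = 0.31) and -1.74 over both genotypes (SE 0.26, adjusted p = 6.8e-04). The call over both genotypes was kept in all 15 alternatives, and that in Ctrl was lost without Ctrl ZT4 replicate 1 (log2 change -1.74, adjusted p = 0.091) or without Ctrl ZT16 replicate 1 (-1.58, adjusted p = 0.45).

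In Vasc, Sgk1 went the other way. It was at 229 and 236 CPM in Ctrl ZT4, 350 and 364 CPM in Ctrl ZT16, 175 and 235 CPM in cKOt ZT4, and 341 and 384 CPM in cKOt ZT16. Again the time points did not overlap, now with ZT16 above ZT4. Vasc joins clusters with 69.4 to 375 CPM of Sgk1, and the part of their shares of Vasc nuclei in this result was not tested. The log2 change was 0.62 in Ctrl (SE 0.14, adjusted p = 0.075), 0.84 in cKOt (SE 0.14, adjusted p = 0.029) and 0.73 over both genotypes (SE 0.10, adjusted p = 0.0018). The call over both genotypes held in all 15 alternatives, and that in cKOt was lost without cKOt ZT4 replicate 1 (0.67, adjusted p = 0.10), cKOt ZT16 replicate 1 (0.93, adjusted p = 0.21) or cKOt ZT16 replicate 2 (0.75, adjusted p = 0.31). The immediate early genes Egr1, Nr4a1 and Ier2 were called lower in Vasc at ZT16 over both genotypes, with log2 changes of -1.18, -1.57 and -0.82, and their part in the result was not tested. The difference between the time effects of Vasc and CCD was 2.44 on the log2 scale over both genotypes (SE 0.23, adjusted p = 1.6e-07 over 9161 genes), in a pair of classes picked for their opposite signs.

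Another pattern of Sgk1 was found in the proximal tubule. In PT clusters 4 and 11 it was at 13.6 and 14.1 CPM in Ctrl ZT4, 88.1 and 53.0 CPM in Ctrl ZT16, 40.6 and 33.5 CPM in cKOt ZT4, and 48.5 and 24.7 CPM in cKOt ZT16. The 2 Ctrl ZT4 libraries were the lowest of the 8. The log2 change between time points was 2.31 in Ctrl (SE 0.32, adjusted p = 0.029) and -0.03 in cKOt (SE 0.30, adjusted p = 0.997), and the test of the difference between genotypes gave -2.35 (SE 0.43, adjusted p = 0.39). The call in Ctrl was lost without any 1 of the 4 Ctrl libraries, with log2 changes of 1.96 to 2.58 and adjusted p-values of 0.077 to 0.23. PCT showed similar values, with a log2 change of 1.67 in Ctrl (SE 0.35, adjusted p = 0.080). In Ctrl the time effects of PT clusters 4 and 11 and of CCD differed by 4.33 on the log2 scale (SE 0.49, adjusted p = 2.1e-04 over 9176 genes), a pair picked in the same way. CNT, next to CCD in the nephron, had a log2 change of -1.20 in Ctrl (SE 0.33, adjusted p = 0.11), and MCD 0.15 (SE 0.35, adjusted p = 0.99).

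Zbtb16 fell at ZT16 in CCD and CNT of both genotypes. In CCD it was at 96.0 and 153 CPM in Ctrl ZT4, 16.2 and 36.8 CPM in Ctrl ZT16, 115 and 199 CPM in cKOt ZT4, and 39.7 and 19.3 CPM in cKOt ZT16. The log2 change was -2.24 in Ctrl (SE 0.39, adjusted p = 0.0062), -2.37 in cKOt (SE 0.37, adjusted p = 0.0055) and -2.30 over both genotypes (SE 0.27, adjusted p = 2.4e-05). In CNT it was at 126 and 110 CPM in Ctrl ZT4, 20.95 and 37.4 CPM in Ctrl ZT16, 91.5 and 145 CPM in cKOt ZT4, and 28.9 and 35.8 CPM in cKOt ZT16, and the log2 change was -2.05 in Ctrl (SE 0.33, adjusted p = 3.4e-04), -1.80 in cKOt (SE 0.29, adjusted p = 4.7e-04) and -1.93 over both genotypes (SE 0.22, adjusted p = 4.3e-07). In both classes all ZT4 libraries lay above all ZT16 libraries, and the calls over both genotypes held in all 15 alternatives.

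Calls of Zbtb16 within 1 genotype were lost in some runs without 1 library, which leave a group of 1 and have less precision. In CCD that of Ctrl was lost without Ctrl ZT4 replicate 2 (-1.80, adjusted p = 0.27) or Ctrl ZT16 replicate 1 (-1.76, adjusted p = 0.45), and that of cKOt without cKOt ZT4 replicate 2 (-1.90, adjusted p = 0.29) or either cKOt ZT16 library (-2.99 and -2.01, adjusted p = 0.12 and 0.31). In CNT that of Ctrl was lost without Ctrl ZT16 replicate 1 (-1.56, adjusted p = 0.12), and that of cKOt without cKOt ZT4 replicate 2 (-1.43, adjusted p = 0.066). In DCT2 Zbtb16 was lower in all, at 25.9 and 12.3 CPM in Ctrl ZT4, 11 and 20.9 CPM in Ctrl ZT16, 47.4 and 32.7 CPM in cKOt ZT4, and 5.39 and 7.43 CPM in cKOt ZT16, on 5 to 42 UMIs. It fell there in cKOt by 2.56 (SE 0.46, adjusted p = 0.0065) and over both genotypes by 1.42 (SE 0.33, adjusted p = 0.017) on the log2 scale. The call in cKOt was lost with DESeq2 and without cKOt ZT4 replicate 1 (-2.23), cKOt ZT16 replicate 1 (-2.33) or cKOt ZT16 replicate 2 (-2.87), and that over both genotypes with DESeq2 and without replicate 1 of Ctrl ZT4 (-1.09), cKOt ZT4 (-1.25), Ctrl ZT16 (-1.18) or cKOt ZT16 (-1.30).

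In the proximal tubule the order of the Zbtb16 libraries was another. In PCT it was at 10.2 and 7.57 CPM in Ctrl ZT4, 129 and 60.6 CPM in Ctrl ZT16, 101 and 41.6 CPM in cKOt ZT4, and 51.0 and 14.4 CPM in cKOt ZT16. As with Sgk1, the 2 Ctrl ZT4 libraries were the lowest of the 8. The log2 change between time points was 3.40 in Ctrl (SE 0.63, adjusted p = 0.055) and -1.08 in cKOt (SE 0.55, adjusted p = 0.64), with an interaction of -4.48 (SE 0.84, adjusted p = 0.28), and none of these was a call. PT clusters 4 and 11 had 3.12 in Ctrl (SE 0.68, adjusted p = 0.14) and -1.01 in cKOt (SE 0.60, adjusted p = 0.81). Whether the Zbtb16 time effect differs between proximal and distal classes was not tested.

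**Figure D4:**
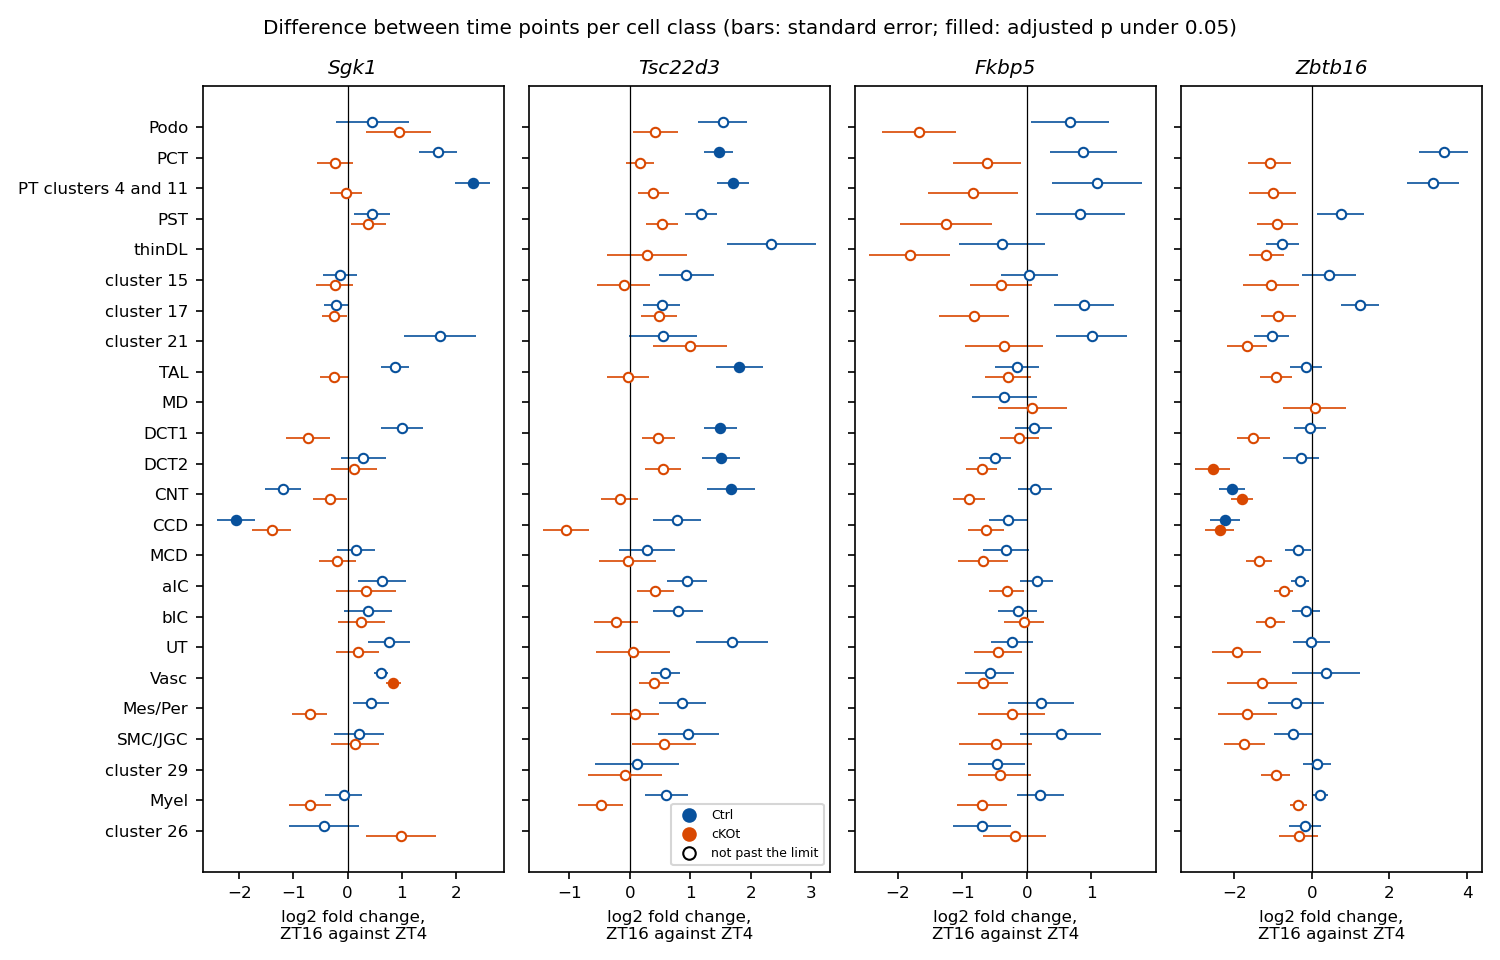
Log2 fold change of ZT16 against ZT4 for Sgk1, Tsc22d3, Fkbp5 and Zbtb16 in 24 classes or clusters, for Ctrl and cKOt. Bars are standard errors and filled points passed an adjusted p of 0.05. Tsc22d3 in Ctrl lies to the right of 0 in 22 of 22 classes tested, with 6 filled points, and Zbtb16 in cKOt to the left in 22 of 23. The classes of a genotype come from the same libraries and are not independent.

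Tsc22d3 rose at ZT16 in Ctrl in the largest number of classes. All 22 classes tested had a higher fitted level at ZT16. Of these, 6 were called (CNT, DCT1, DCT2, PCT, PT clusters 4 and 11, and TAL), with log2 changes of 1.47 to 1.81. The classes come from the same Ctrl libraries, so their shared direction is not a count of independent results. The part of free RNA in it was not tested. In PCT it was at 78.0 and 53.0 CPM in Ctrl ZT4 and at 178 and 183 CPM in Ctrl ZT16, a log2 change of 1.47 (SE 0.24, adjusted p = 0.037). In DCT1 it was at 49.0 and 33.4 CPM in Ctrl ZT4 and at 89.5 and 136 CPM in Ctrl ZT16, a log2 change of 1.50 (SE 0.27, adjusted p = 0.0094).

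In cKOt the levels of Tsc22d3 at the 2 time points lay closer together. In PCT the ZT4 libraries were at 125 and 81.0 CPM and those of ZT16 at 125 and 100.3 CPM, a log2 change of 0.17 (SE 0.23, adjusted p = 0.91). In DCT1 they were at 80.7 and 57.9 CPM and at 117 and 73.6 CPM, a log2 change of 0.47 (SE 0.27, adjusted p = 0.67). Of 22 classes 14 were higher and 8 lower at ZT16 and none was called. The interaction was negative in 21 of 22 classes, with a median of -1.03, but none of these was called and 8 had an unadjusted p under 0.05, where 4.26% of all pairs had, so a difference between genotypes was not established. Over both genotypes Tsc22d3 was called higher in DCT1 (log2 change 0.99, SE 0.19, adjusted p = 0.0081) and DCT2 (1.03, SE 0.21, adjusted p = 0.0073).

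A run without 1 library leaves a group of 1 and has less precision. In such runs calls of Tsc22d3 in Ctrl were lost. All 6 were lost without Ctrl ZT4 replicate 2 (log2 changes 1.02 to 1.41) and all 6 without Ctrl ZT16 replicate 2 (1.11 to 1.78). Without Ctrl ZT16 replicate 1 those in CNT, PCT and PT clusters 4 and 11 were lost (1.50, 1.55 and 1.77), and without Ctrl ZT4 replicate 1 those in PCT and PT clusters 4 and 11 (1.72 and 2.09). Those in PCT and PT clusters 4 and 11 were also lost without either cKOt ZT16 library, at nearly the same size (1.46 to 1.71), and DESeq2 did not call those in CNT, DCT2 and TAL. Over both genotypes the call in DCT1 was lost without Ctrl ZT16 replicate 2 (0.79, adjusted p = 0.0503) or cKOt ZT16 replicate 1 (0.82, adjusted p = 0.076), and that in DCT2 without Ctrl ZT16 replicate 2 (0.89, adjusted p = 0.052) and with DESeq2. The direction was the same in all of these.

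Hsd11b2 was the only receptor or enzyme gene of the 4 with a call for time. In CNT it was at 460 and 595 CPM in Ctrl ZT4, 896 and 669 CPM in Ctrl ZT16, 259 and 485 CPM in cKOt ZT4, and 519 and 557 CPM in cKOt ZT16. In each genotype both ZT16 libraries lay above both ZT4 libraries, but the Ctrl ZT4 and cKOt ZT16 ranges overlapped. The log2 change was 0.60 in Ctrl (SE 0.20, adjusted p = 0.23), 0.60 in cKOt (SE 0.20, adjusted p = 0.23) and 0.60 over both genotypes (SE 0.14, adjusted p = 0.015). The last was lost without Ctrl ZT4 replicate 1 (0.53, adjusted p = 0.10), cKOt ZT4 replicate 1 (0.44, adjusted p = 0.10), Ctrl ZT16 replicate 1 (0.51, adjusted p = 0.13) or cKOt ZT16 replicate 2 (0.56, adjusted p = 0.077), and with DESeq2. In CCD the log2 change over both genotypes was 0.24 (SE 0.15, adjusted p = 0.76) and in DCT2 it was 0.82 (SE 0.24, adjusted p = 0.067).

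Neither receptor gene was called in any class or comparison. For Nr3c2 the log2 changes between time points ranged from -0.79 to 0.27 in Ctrl and from -0.84 to 0.72 in cKOt over 24 classes. The proximal tubule lay at the lower end: PCT had 287 and 249 CPM in Ctrl ZT4, 172 and 196 CPM in Ctrl ZT16, 254 and 284 CPM in cKOt ZT4, and 173 and 218 CPM in cKOt ZT16. Its time points did not overlap, and the log2 change over both genotypes was -0.48 (SE 0.13, adjusted p = 0.11). In CNT, where the gene is highest, the change was 0.18 (SE 0.12, adjusted p = 0.57). For Nr3c1 the changes ranged from -0.62 to 0.58 in Ctrl and from -0.61 to 0.51 in cKOt, and no class had an unadjusted p under 0.05 in Ctrl.

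The comparison of genotypes gave no call among the 8 genes. It does not isolate the tubular clock, since cKOt mice also carry the Pax8-rtTA and LC-1 transgenes, which Ctrl mice lack. The paper adds that BMAL1 has functions outside the clock. At ZT4 0 of 162 gene and class pairs were called, 27 of them at an unadjusted p under 0.05 (6.38% of all pairs were), where 0.285% of all pairs were called, and DESeq2 called 6, with 0.393% of all pairs. At ZT16 it was 0 of 173, 35 at an unadjusted p under 0.05 (5.53% of all pairs were), where 0.163% of all pairs were called, and DESeq2 called 1, with 0.268% of all pairs. For the interaction it was 0 of 173, 27 at an unadjusted p under 0.05 (4.26% of all pairs were), where 0.0238% of all pairs were called, and DESeq2 called 3, with 0.0472% of all pairs. The median log2 difference of the 8 genes over all tested pairs was -0.08 at ZT4 and -0.29 at ZT16. Over all nuclei the median of the 8 genes was -0.18 and -0.36, against 0.00 and 0.00 for all genes.

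Some separations between genotypes were large in spite of this. The largest log2 difference in a class was 3.39, for Zbtb16 at ZT4 in PT clusters 4 and 11, and it was not called. It rested on 60 and 61 UMIs in the Ctrl libraries and 961 and 364 in those of cKOt. At ZT4 Zbtb16 was higher in cKOt in 16 of 22 classes and lower in 6, all from the same libraries. Other genes had lower levels in cKOt. Hsd11b1 in PST was at 110 and 182 CPM in Ctrl ZT4 and 148 and 75.9 CPM in Ctrl ZT16, against 31.4 and 58.8 CPM in cKOt ZT4 and 43.1 and 31.1 CPM in cKOt ZT16. All 4 Ctrl libraries lay above all 4 cKOt libraries. The log2 difference was -1.71 at ZT4 (SE 0.37, adjusted p = 0.12) and -1.55 at ZT16 (SE 0.37, adjusted p = 0.14). PT clusters 4 and 11 had a difference of -1.29 at ZT4 (SE 0.28, adjusted p = 0.10). Hsd11b1 was lower in cKOt in 17 of 20 classes at ZT4 and in 18 of 21 at ZT16, from the same libraries. At each time 7 classes had an unadjusted p under 0.05, where 6.38% and 5.53% of all pairs had. The lower level was therefore not limited to the proximal tubule. In Mes/Per, which lies outside the tubule, the Hsd11b1 difference was -0.17 at ZT4 (SE 0.17, adjusted p = 0.89) and -0.01 at ZT16 (SE 0.17, adjusted p = 1.00).

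Fkbp5 was lower in cKOt at ZT16 in 22 of 24 classes, which come from the same libraries. Of the 24, 7 had an unadjusted p under 0.05 (5.53% of all pairs had) and none was called. In PT clusters 4 and 11 it was at 327 and 225 CPM in Ctrl ZT4, 657 and 530 CPM in Ctrl ZT16, 333 and 53.0 CPM in cKOt ZT4, and 164 and 54.8 CPM in cKOt ZT16. At ZT16 the genotypes did not overlap, while at ZT4 the 2 cKOt libraries lay on either side of both Ctrl libraries. The log2 difference at ZT16 was -2.45 (SE 0.73, adjusted p = 0.32) in PT clusters 4 and 11, -1.95 (SE 0.53, adjusted p = 0.35) in PCT and -2.14 (SE 0.72, adjusted p = 0.37) in PST.

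**Figure D5:**
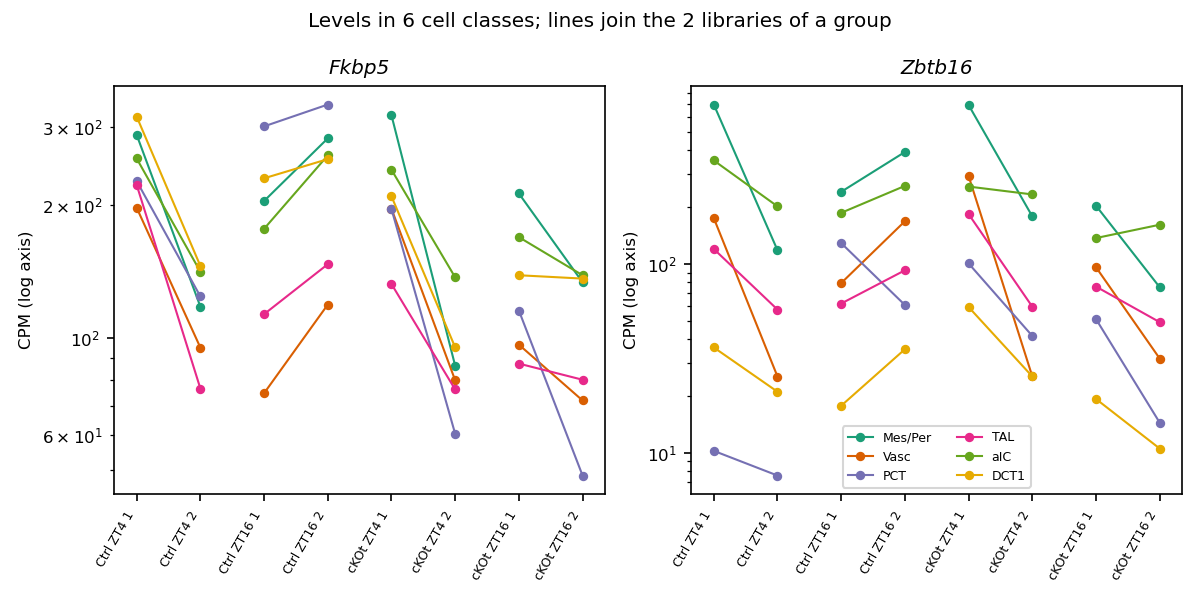
Levels (CPM, log axis) of Fkbp5 and Zbtb16 in 6 cell classes, with lines joining the 2 libraries of each group. At ZT4 replicate 1 lies above replicate 2 in most classes of both genotypes, as for Zbtb16 in Mes/Per with 699 against 118 CPM in Ctrl and 695 against 179 CPM in cKOt.

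The replicates of a group differed from each other in the responsive genes. At ZT4, Fkbp5 was higher in replicate 1 than in replicate 2 in 21 of 24 classes in Ctrl and in 21 of 24 in cKOt. Zbtb16 was higher there in 19 of 24 and 20 of 24 classes, and Tsc22d3 in 20 of 24 and 21 of 24. Over all nuclei replicate 1 exceeded replicate 2 by 1.76 and 3.21 times for Fkbp5, 2.55 and 2.78 times for Zbtb16 and 1.92 and 1.50 times for Tsc22d3 in Ctrl and cKOt. Sgk1 was higher in replicate 1 of Ctrl ZT4 in 18 of 24 classes, by 1.53 times over all nuclei, but in 8 of 24 in cKOt ZT4. In cKOt ZT16 replicate 1 was the higher for Fkbp5 in 23 of 24 classes and for Zbtb16 in 18 of 24 (2.27 times over all nuclei), while in Ctrl ZT16 replicate 2 was the higher in 19 and 17 of 24. Nr3c1 was higher in replicate 2 in 18 to 22 of 24 classes in all 4 groups, an order opposite to that of Fkbp5 and Zbtb16 except in Ctrl ZT16.

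Other signals also differed between these libraries. The summed level of 8 immediate early genes reached 332 and 91.9 CPM for Ctrl at ZT4 and 283 and 145 CPM for cKOt at ZT4, and 218 and 175 CPM in Ctrl ZT16 and 319 and 209 CPM in cKOt ZT16. It was higher in replicate 1 in all 4 groups, also in Ctrl ZT16, where Fkbp5, Zbtb16 and Tsc22d3 were higher in replicate 2 in 19, 17 and 20 of 24 classes. Their part in the spread of Fkbp5, Zbtb16, Tsc22d3 and Sgk1 was not tested. The 5 adipocyte markers summed to 12.0 and 28.0 CPM in cKOt ZT4 and to at most 2.08 CPM in the other 3 groups, and Ucp1 and Cidea were called higher there (log2 difference 6.34 and 2.96, adjusted p = 0.038 and 0.024). Their part in the cKOt ZT4 values was not tested. Of 6 adrenal cortex markers, which would mark the gland attached to the kidney, Cyp11b2 was at 0 in all libraries and Star made up 6.14 to 10.1 of the 6.51 to 10.4 CPM in each.

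Genes of the wider pathway were followed as lists, with the same tests. Over all nuclei none of the 22 glucocorticoid-induced, 11 aldosterone-regulated or 11 chaperone and co-regulator genes was called in any of the 6 comparisons, with 4 to 6, 1 to 3 and 0 to 1 of them at an unadjusted p under 0.05, where 4.35% to 13.7% of all genes were. Within classes the shares of all pairs called were 0.315% for time in Ctrl, 0.112% for time in cKOt, 0.285% and 0.163% for genotype at ZT4 and ZT16, 0.81% for time over both genotypes and 0.0238% for the interaction, and 8.03%, 6.83%, 6.38%, 5.53%, 9.98% and 4.26% of all pairs in the same order had an unadjusted p under 0.05. Against these the glucocorticoid-induced genes gave 4 calls up and 2 down of 337 pairs for time in Ctrl (median log2 change 0.02), 0 up and 2 down of 340 in cKOt (-0.15), 2 up and 3 down of 333 for genotype at ZT4 (-0.02), 0 up and 4 down of 345 at ZT16 (-0.25), 1 up and 5 down of 362 for time over both genotypes (-0.06) and 0 of 362 for the interaction (-0.18, 52 at an unadjusted p under 0.05). The aldosterone-regulated genes gave 1 call up in cKOt (of 194), 3 up over both genotypes (of 202), 1 down for genotype at ZT16 (of 200) and none in the other 3 comparisons, where 25, 23 and 10 pairs had an unadjusted p under 0.05. The chaperones and co-regulators gave 1 call up for time in Ctrl (of 256), 1 up over both genotypes (of 261) and none in the other 4, where 4 to 40 pairs had an unadjusted p under 0.05.

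The called genes of these lists did not move as 1 group. Pck1, the gluconeogenic enzyme PEPCK, was called higher at ZT16 in Ctrl in nuclei of TAL (log2 change 1.01, adjusted p = 0.0061), CNT (1.16, adjusted p = 0.0093), DCT2 (1.27, adjusted p = 0.011) and Vasc (0.85, adjusted p = 0.021). The fitted change was positive in all 24 classes, and the levels in these 4 classes at ZT4 in Ctrl, 38.8 to 109.5 CPM, lay below the 287 to 778 CPM of Pck1 in the proximal tubule, where the gene is known to be abundant and was not called (PCT, 0.90, adjusted p = 0.098). A UMI was found in 15.0% and 20.8% of Vasc nuclei at ZT4 in Ctrl and in 29.9% and 30.7% at ZT16, and the part of free RNA from proximal tubule in these calls was not tested. The metallothioneins Mt1 and Mt2 fell in TAL in the same comparison, by 0.96 (adjusted p = 0.012) and 1.26 (adjusted p = 0.016) on the log2 scale, and over both genotypes by 0.59 and 0.84 (adjusted p = 0.016 and 0.014), and Mt1 was also lower there in cKOt at ZT4 (-1.002, adjusted p = 0.014). Pdk4, a kinase that inhibits pyruvate dehydrogenase, fell at ZT16 in CNT in cKOt (-2.17, adjusted p = 0.049), in CNT (-2.08, adjusted p = 0.017) and DCT1 (-1.08, adjusted p = 0.023) over both genotypes, and was higher in cKOt at ZT4 in TAL (2.05, adjusted p = 0.0088). Angptl4, an inhibitor of lipoprotein lipase that is also driven by PPARs, was lower in cKOt at ZT16 in PST (-4.54, adjusted p = 0.0073), PT clusters 4 and 11 (-4.42, adjusted p = 0.0040) and PCT (-3.22, adjusted p = 0.022). It was also lower in cKOt at ZT4 in PT clusters 4 and 11 (-2.999, adjusted p = 0.011) and higher in cKOt at ZT4 in TAL (2.01, adjusted p = 0.044), where it fell at ZT16 in cKOt (-2.71, adjusted p = 0.014) and over both genotypes (-1.45, adjusted p = 0.025). The other calls of this list were Pck1 in DCT2 over both genotypes (0.77, adjusted p = 0.012), Lpin1 in PST in cKOt at ZT16 (-1.04, adjusted p = 0.029) and Anxa1 in cluster 17 in cKOt at ZT4 (-1.64, adjusted p = 0.035). Of the aldosterone-regulated genes, the kinase Wnk1 (0.70, adjusted p = 0.0017) and the sodium channel subunit Scnn1g (0.46, adjusted p = 0.039) rose in CNT and Edn1 rose in Vasc (1.04, adjusted p = 0.0035) at ZT16 over both genotypes, Edn1 also in cKOt alone (1.33, adjusted p = 0.033). Fxyd4, a regulator of the sodium pump, was lower in cKOt in CNT at ZT16 (-1.42, adjusted p = 0.0022). Hsp90ab1, part of the receptor's chaperone complex, rose at ZT16 in Ctrl in DCT2 (1.28, adjusted p = 0.0044) and over both genotypes (0.71, adjusted p = 0.011).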

How the data were processed

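Nuclei were sorted from frozen central kidney cross-sections and profiled with 10x 3′ v3.1 chemistry. The authors deposited 1 matrix of raw UMI counts per library, made with Cell Ranger (7.1.0), whose default setting counts intronic reads. The study's methods name the mm10 reference package and the submitters' processing notes GRCm39, so no gene coordinates are taken from the files. Barcodes were dropped below 500 genes or 800 UMIs, or above 2% of UMIs from mitochondrial genes. Nuclei were clustered on 2000 variable protein-coding genes (scanpy 1.11.5, Leiden, 1000 components, resolution 2.2), and clusters were named from marker lists. Counts were summed per class and library and fitted with edgeR (4.0.16; TMM, quasi-likelihood) over all 8 libraries, on genes that reached 5 counts in both libraries of any group compared, with Benjamini-Hochberg adjustment per class and comparison. Groups came from the labels, and p-values measure the spread between 2 mice per group, whose counts differed beyond sampling noise in every group. Thinned shares are expected values at 800 UMIs. For each gene the 3 genes with the highest Pearson r over the 19 named classes were taken, and pathway genes called within classes were named after their calls were seen, since none was called over all nuclei. DESeq2 (1.42.0), other normalization, no filter, all genes, no doublets, 50 components and leaving out each library were tried. The 8 genes, the lists and the alternatives were chosen with earlier results of these data known.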

Additional observations from a re-analysis of the deposited data

Results flagged for a closer look

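The time effect of Sgk1 differed between cell classes in a test of the difference itself. In Ctrl it was higher at ZT16 in PT clusters 4 and 11 and lower in CCD, and the 2 log2 changes differed by 4.33 (SE 0.49, adjusted p = 2.1e-04, edgeR over 9176 genes). Over both genotypes it was higher at ZT16 in Vasc and lower in CCD, a difference of 2.44 (SE 0.23, adjusted p = 1.6e-07, edgeR over 9161 genes). These tests were added after the calls were seen, since the pairs were picked for their opposite signs. The classes compared come from the same libraries. Vasc joins clusters with different levels of Sgk1, and the part of their shares was not tested.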

How the results depend on the processing

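Called values kept their direction in every alternative run, and of the 328 alternative values of the 22 calls 270 stayed past the threshold and 58 did not. Without a filter on low counts, 26, 17, 13, 11, 29 and 9 pairs of gene and class were called (time in Ctrl, time in cKOt, genotype at ZT4, genotype at ZT16, time over both, interaction), against 10, 4, 0, 0, 8 and 0, and the share of all pairs called was 0.724%, 0.492%, 0.588%, 0.44%, 1.34% and 0.182%. DESeq2 called 6, 1 and 3 pairs for genotype at ZT4, genotype at ZT16 and the interaction, and over all nuclei 1 gene for time in Ctrl, 1 for genotype at ZT4 and 2 for time over both. Leaving out 1 library gave 2 to 15, 1 to 4, 0 to 5, 0 to 3, 7 to 12 and 0 to 1 called pairs in the same order, where the lone library of a group is assumed to vary like the others. The fit with a replicate block called 3 pairs for genotype at ZT4, 14 for time over both and 1 for the interaction. The differences between replicates 1 and 2 correlated at 0.417 and 0.413 between the genotypes at ZT4 and at ZT16 (13551 genes). Across time points they correlated from -0.264 to 0.183. A pairing of same-numbered libraries within a time point is therefore not excluded. The main fit treats the libraries as unpaired, and the replicate block takes 1 replicate difference common to all groups, so neither models such a pairing. Scaled to all UMIs, the level of Nr3c1 in Myel was 481.9 and that of Nr3c2 in CNT 2894 CPM. Several distal values rest on 5 to 87 UMIs per library and 2 mice a group, which limits their precision. The cause of these shifts was not tested.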
